A study of Mus musculus with 12 samples.

Results

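The genes described here are 10 ligands of the tumor necrosis factor (TNF) superfamily, Tnf, Tnfsf4, Tnfsf8, Tnfsf9, Tnfsf10, Tnfsf12, Tnfsf13, Tnfsf13b, Tnfsf14 and Tnfsf15, chosen by gene symbol. They are 10 of the 56748 genes in the count table, and all 10 lie among the 37542 rows used. Their mRNA was measured by RNA-seq in bone-marrow-derived macrophages (BMDMs) of C57BL/6N mice. The marrow came from wild-type (WT) mice or from Alpk1-/- mice (KO) and was differentiated for 7 days in medium conditioned by L929 cells, a fibroblast line that secretes the macrophage growth factor M-CSF. Cells of both genotypes then received PBS or 100 µM ADP-Hep for 4 h, which gave 4 groups of 3 libraries: WT with PBS, WT with ADP-Hep, KO with PBS and KO with ADP-Hep. The sources used here give neither the deleted part of Alpk1 nor the number of mice. Whether the 3 libraries of each group stem from different mice or dishes is likewise not stated, so p-values measure only the spread between these libraries.

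TNF superfamily ligands are trimeric proteins, most of them made as transmembrane proteins on the cell surface, and several are shed as soluble cytokines. They bind receptors of the TNF receptor superfamily, which recruit TRAF adaptors or death domain proteins and lead to NF-kB and MAP kinase signalling or to cell death. Macrophages are a main source of TNF itself. ADP-Hep (ADP-heptose) is a sugar nucleotide from the lipopolysaccharide synthesis of Gram-negative bacteria. The kinase ALPK1 binds it in the cytosol and phosphorylates the adaptor TIFA, which assembles with TRAF6 and activates NF-kB.

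The Tnf messenger carries AU-rich elements, short repeats in its 3′ untranslated region that the decay factor tristetraprolin (Zfp36) binds. The sequence below shows why Tnf stands apart from the other 9 ligands in this feature. It is bases 437 to 466 of the 764-base 3′ untranslated region of the GENCODE transcript, given as DNA letters on the strand of the messenger. Capitals mark overlapping matches to the nonamer TTATTTATT.
Tnf AU-rich element: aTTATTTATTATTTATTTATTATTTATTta
These 30 bases hold 4 overlapping nonamers and 5 copies of the pentamer ATTTA, which lies inside the nonamer. The whole Tnf 3′ untranslated region holds 5 nonamers and 8 pentamers. Tnfsf13b has 1 nonamer and the other 8 ligands have 0. Of 21005 genes with a coding transcript and a 3′ untranslated region, 7.66% held at least 1 nonamer and 0.671% held 3 or more. Among the 2657 genes whose region was close in length to that of Tnf (median 774 bases), 4.10% held at least 1 and 0.151% held 3 or more. Pentamers ranged from 0 in Tnfsf13 to 10 in Tnfsf8, whose 3′ untranslated region is 2799 bases long.

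Promoter sequences are shown for Tnf and for Tnfsf10 and Tnfsf15, which were all higher in WT cells with ADP-Hep and behaved differently from each other in KO cells. They are from RefSeq on GRCm38, read on the strand of the gene and cut where an annotated exon begins. Tnf, chr17:35202008-35202257 (minus strand), Tnfsf10, chr3:27316827-27317027 (plus strand), and Tnfsf15, chr4:63745114-63745309 (minus strand), are given in this order. Capitals mark a motif match.
Tnf: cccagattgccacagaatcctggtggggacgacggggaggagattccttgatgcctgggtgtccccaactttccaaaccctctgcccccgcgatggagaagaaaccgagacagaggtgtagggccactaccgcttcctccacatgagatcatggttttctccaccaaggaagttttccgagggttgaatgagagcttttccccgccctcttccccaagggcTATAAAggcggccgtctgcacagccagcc
Tnfsf10: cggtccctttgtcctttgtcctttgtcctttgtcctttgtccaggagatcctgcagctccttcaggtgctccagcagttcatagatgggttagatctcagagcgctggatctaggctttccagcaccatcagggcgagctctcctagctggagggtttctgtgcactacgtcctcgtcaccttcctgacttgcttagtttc
Tnfsf15: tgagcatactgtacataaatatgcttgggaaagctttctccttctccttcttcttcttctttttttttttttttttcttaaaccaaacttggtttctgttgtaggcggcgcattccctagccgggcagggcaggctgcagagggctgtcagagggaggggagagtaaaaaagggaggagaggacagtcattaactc
The RefSeq table held 7 of the 10 ligands. In their windows of 250 bases before the start, both strands were searched for the NF-kB consensus, the interferon response element (GAAA repeated after any 2 bases), the AP-1 site TGANTCA, which reads the same on both strands, and the TATA box TATAAA. No match overlapped another. The TATA box occurred in Tnf, 29 to 24 bases before the start, and in 12.4% of 32851 promoters. The AP-1 letters occurred in Tnfsf13, Tnfsf14 and 1 of the starts of Tnfsf13b, and in 6.75% of promoters. The interferon response element occurred at the same start of Tnfsf13b, as GAAAGTGAAA 16 to 7 bases before it, and in 2.98% of promoters. The windows searched were not cut at exons. At Tnfsf13 and this start of Tnfsf13b, the last 230 and 166 bases of the window lay inside the annotated gene. The matches of these 2 ligands fell in those bases and are not upstream of the annotated gene. The NF-kB consensus was in 0 of the members' windows and in 3.90% of promoters. A match is a run of letters and not a bound site, and a missing match concerns only these windows.

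Levels are given as CPM, read counts per 1000000 reads counted in the rows used, after TMM scaling, with SD over the 3 libraries of a group. Changes are log2 fold changes ± SE from edgeR's quasi-likelihood test, called at a Benjamini-Hochberg adjusted p under 0.05 over 12261 tested genes. Tnfsf14 was too low to be tested. Total counts ran from 16110654 to 31333973 per library and counts in the rows used from 12307826 to 25742912. Alpk1 itself was read in every library, at 29.3 CPM ± 3.18 in WT cells with PBS, 53.8 ± 1.48 in WT cells with ADP-Hep, 21.3 ± 1.02 in KO cells with PBS and 21.1 ± 1.70 in KO cells with ADP-Hep. Alpk1 was lower in KO than in WT cells, by -0.45 ± 0.08 with PBS and -1.34 ± 0.07 with ADP-Hep (log2), and reads outside a deleted part cannot check the genotype. All 10 macrophage markers were tested and summed to between 25000 and 29742 CPM in every library. The T cell markers Cd3e and Cd3g, the B cell marker Pax5 and the NK cell markers Ncr1 and Gzma had 0 counts. The sum of the 10 T cell markers, carried by Cd28 and Il7r, was 250 to 287 CPM in WT cells with PBS, 87.2 to 93.9 in WT cells with ADP-Hep, 264 to 279 in KO cells with PBS and 177 to 184 in KO cells with ADP-Hep. The B cell marker list, carried by Blnk, summed to 189 to 202 CPM in 3 groups and to 144 to 146 CPM in KO cells with ADP-Hep. The neutrophil marker list summed to 318 to 349 and 296 to 313 CPM in WT cells with PBS and ADP-Hep, and to 338 to 365 and 267 to 277 CPM in KO cells. Of its 8 tested genes, 3 were called higher and 2 lower in WT cells and 0 higher and 5 lower in KO cells. Over all tested genes the shares were 31.9% and 31.6% in WT cells and 13.7% and 15.3% in KO cells. The macrophage list had 5 called higher and 3 lower in WT cells, and 3 higher and 1 lower in KO cells. With PBS, 4 macrophage markers were called higher and 0 lower in KO than in WT cells, against 5.57% and 5.82% of all tested genes. The part of these lists in the results was not tested. In RNA from whole cultures, fewer expressing cells and less RNA per cell cannot be told apart.

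ADP-Hep raised Tnf, Tnfsf4, Tnfsf9, Tnfsf10 and Tnfsf15 in WT cells, by 3.94-fold to 15.2-fold, and lowered Tnfsf8, Tnfsf12, Tnfsf13 and Tnfsf13b, by 1.57-fold to 2.86-fold. Each of the 9 tested ligands was thus called in this comparison, 5 higher and 4 lower, where 31.9% of all tested genes were called higher and 31.6% lower. In KO cells 2 were called higher and 2 lower, against 13.7% and 15.3% of all tested genes. The response differed between the genotypes for 8 of the 9, more positive in WT cells for 5 and more negative for 3, against 24.6% and 24.9% of all tested genes. Tnfsf4 passed the filter on low counts only through the ADP-Hep groups, so these counts describe the tested ligands and are not offered as support. The median log2 change of the 9 was 1.98 in WT cells and 0.09 in KO cells, beside -0.0058 and 0.0053 over all tested genes, and the median difference of responses was 1.28 beside -0.010.

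**Figure D1:**
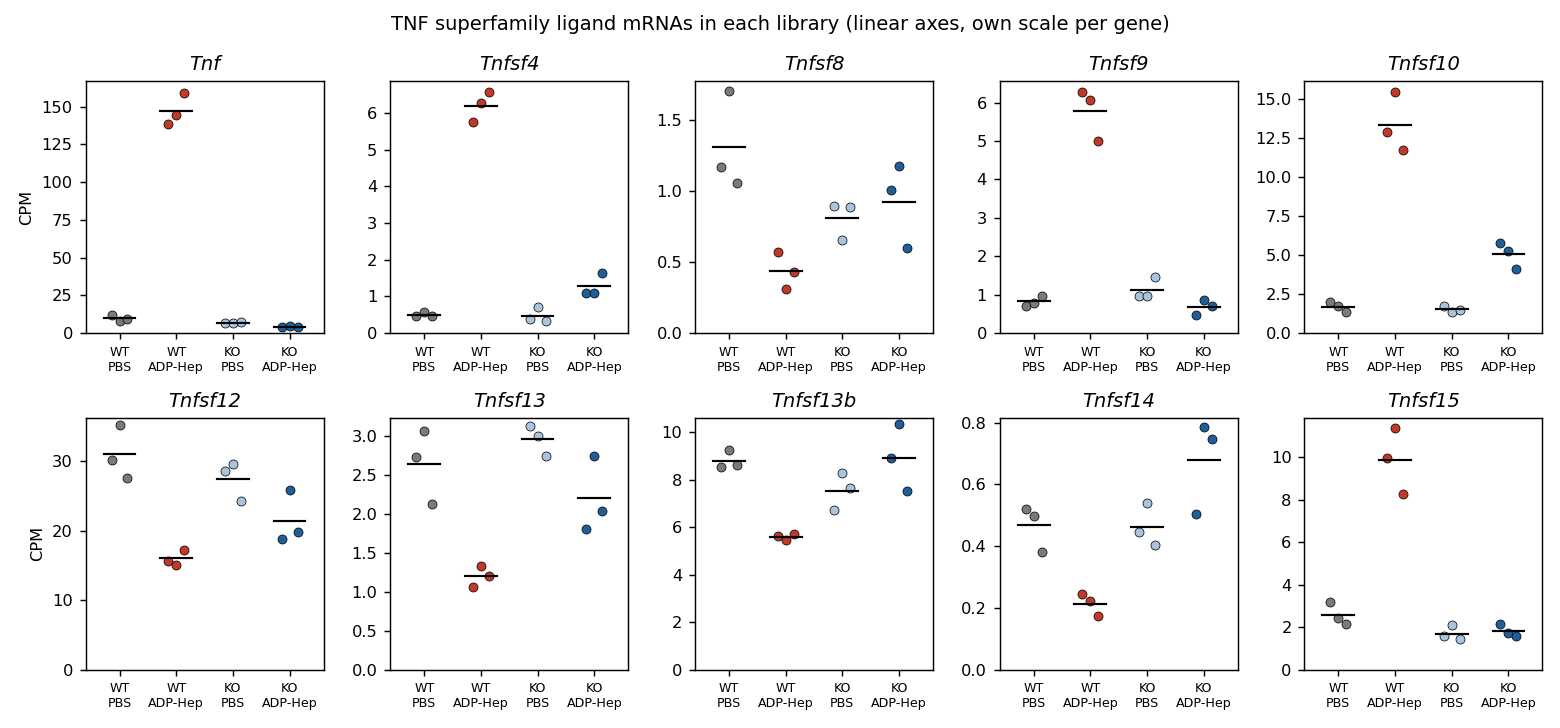
Level of each of the 10 ligand mRNAs in CPM (vertical axes, linear, starting at 0, with a scale of its own for each gene) in the 3 libraries of each group; points are libraries and bars are group means. The WT ADP-Hep libraries of Tnf lie between 138 and 159 CPM and all other libraries at or below 11.7.

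Tnf (ENSMUSG00000024401, chr17:35199381-35202007 in mm10, minus strand, protein coding) encodes the founding cytokine of the family, which binds TNFR1 and TNFR2 and drives inflammation. Its level was 11.7, 8.18 and 9.17 CPM in the WT libraries with PBS and 138, 144 and 159 CPM in those with ADP-Hep. In KO cells it was 6.78, 6.53 and 7.49 CPM with PBS and 4.20, 4.71 and 3.93 CPM with ADP-Hep. The WT ADP-Hep libraries lay far above all others, and the KO ADP-Hep libraries lay below every other library. In WT cells Tnf rose by 3.92 ± 0.08 on the log2 scale, 15.2-fold (edgeR adjusted p = 4.3e-22). In KO cells it fell by 0.71 ± 0.15, a 1.63-fold decrease (edgeR adjusted p = 0.00068). The responses differed by 4.63 ± 0.18 (edgeR adjusted p = 1.6e-16), the largest difference of the 9 tested ligands. These values rest on 511 reads in WT cells with PBS, 8482 in WT cells with ADP-Hep, and 293 and 239 in KO cells.

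Tnfsf15 (ENSMUSG00000050395, chr4:63727084-63745113, minus strand) encodes TL1A, a cytokine that acts through DR3 (Tnfrsf25) on T cells and innate lymphoid cells. Its level was 3.19, 2.42 and 2.16 CPM in WT cells with PBS and 9.98, 11.4 and 8.28 CPM with ADP-Hep. KO cells held 1.56, 2.10 and 1.45 CPM with PBS and 2.14, 1.73 and 1.59 CPM with ADP-Hep. All WT libraries with ADP-Hep stood above the others, and the KO groups overlapped. Tnfsf15 rose in WT cells by 1.98 ± 0.16, 3.94-fold (edgeR adjusted p = 4.7e-11). In KO cells the estimate was 0.09 ± 0.24 (edgeR adjusted p = 0.817) with an approximate 95% interval of -0.38 to 0.56, and its sign changed when 1 library was left out (range -0.078 to 0.29). The responses differed by 1.89 ± 0.30 (edgeR adjusted p = 9.0e-06).

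Tnfsf4 (ENSMUSG00000026700, chr1:161395409-161418410, plus strand) encodes the OX40 ligand, a co-stimulator of T cells on antigen-presenting cells. It was near its detection limit with PBS, at 7, 8 and 11 reads in the WT libraries and 5, 12 and 4 in the KO libraries. With ADP-Hep it had 141, 141 and 76 reads in WT cells, or 5.74, 6.28 and 6.56 CPM. The KO libraries with ADP-Hep had 26, 14 and 33 reads, or 1.09, 1.10 and 1.64 CPM. These values were above every PBS library, the highest of which had 0.719 CPM, and below every WT ADP-Hep library. Tnfsf4 thus rose in both genotypes, by 3.63 ± 0.24 in WT cells (edgeR adjusted p = 7.8e-13) and by 1.38 ± 0.33, or 2.59-fold, in KO cells (edgeR adjusted p = 0.0023). The WT response was larger by 2.25 ± 0.47 (edgeR adjusted p = 0.00031). Tnfsf4 passed the filter on low counts only through the ADP-Hep groups, where it was highest. Its p-values are therefore descriptive and are no support for the rises or their difference.

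Tnfsf9 (ENSMUSG00000035678, chr17:57105325-57107757, plus strand) encodes the ligand of the T cell co-stimulatory receptor CD137 (Tnfrsf9). The WT libraries with PBS held 0.716, 0.783 and 0.976 CPM and those with ADP-Hep 6.27, 6.06 and 5.0 CPM. KO cells held 0.969, 0.958 and 1.45 CPM with PBS and 0.462, 0.864 and 0.696 CPM with ADP-Hep. In WT cells the ADP-Hep libraries were all above the PBS libraries, and in KO cells they were all below them. The WT rise was 2.78 ± 0.21, 6.88-fold (edgeR adjusted p = 1.9e-11). The KO estimate of -0.79 ± 0.31 did not pass (edgeR adjusted p = 0.062, and 0.041 without KO ADP-Hep replicate 3, within a range of 0.041 to 1 over the other tools, scalings, filters and left-out libraries tried). The responses differed by 3.57 ± 0.39 (edgeR adjusted p = 3.4e-08). These values rest on 45 and 348 reads in WT cells and on 47 and 36 in KO cells. A long intergenic RNA on the opposite strand, Gm11110, overlaps 618 bases of Tnfsf9 and had 9 to 41 reads per library.

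Tnfsf8 (ENSMUSG00000028362, chr4:63831308-63861347, minus strand) encodes the ligand of CD30, a receptor of activated lymphocytes. It lies on the same strand as Tnfsf15, 86.2 kb away, and moved in the opposite direction in WT cells. Its level was 1.17, 1.71 and 1.06 CPM in WT cells with PBS and 0.570, 0.312 and 0.431 CPM with ADP-Hep. KO cells held 0.894, 0.659 and 0.886 CPM with PBS and 1.01, 1.18 and 0.597 CPM with ADP-Hep. The WT ADP-Hep libraries were the lowest of all, and the KO groups overlapped. Tnfsf8 fell in WT cells by 1.51 ± 0.35, 2.86-fold (edgeR adjusted p = 0.00051). The KO estimate was 0.17 ± 0.35 (edgeR adjusted p = 0.756, approximate 95% interval -0.51 to 0.86), and the responses differed by -1.69 ± 0.49 (edgeR adjusted p = 0.0063). Only 26 reads in the 3 WT ADP-Hep libraries and 67 in those with PBS stand behind the fall.

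Tnfsf14 (ENSMUSG00000005824, chr17:57189492-57194177, minus strand) encodes LIGHT, which binds HVEM (Tnfrsf14) and the lymphotoxin beta receptor. It had 94 reads in all 12 libraries. The WT libraries had 8, 7 and 9 reads with PBS and 6, 5 and 2 with ADP-Hep, a mean of 0.467 CPM ± 0.0744 and of 0.213 ± 0.0368. KO libraries had 6, 9 and 5 reads with PBS and 12, 10 and 15 with ADP-Hep, at 0.463 CPM ± 0.0696 and 0.678 ± 0.152. As for Tnfsf8, the WT libraries with ADP-Hep were the lowest. With no filter on low counts, the log2 change was -1.03 in WT cells (edgeR adjusted p = 0.160; 0.055 to 0.160 over the 11 settings that kept the gene) and 0.50 in KO cells (edgeR adjusted p = 0.583; 0.271 to 0.583). The difference of responses was -1.53 (edgeR adjusted p = 0.122; 0.028 to 0.122, called in 3 of 11 settings). Under the same setting KO cells were above WT cells with ADP-Hep by 1.55 (edgeR adjusted p = 0.0092; 0.0021 to 0.012 over 12 settings). The settings with a library left out kept Tnfsf14 through the KO ADP-Hep group, where it was highest, so their p ranges are no support for these differences.

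Tnfsf10 (ENSMUSG00000039304, chr3:27317028-27342427, plus strand) encodes TRAIL, which induces apoptosis through death receptors and is an interferon-inducible gene. The WT libraries held 2.02, 1.71 and 1.36 CPM with PBS and 12.9, 15.5 and 11.7 CPM with ADP-Hep. The KO libraries held 1.71, 1.38 and 1.45 CPM with PBS and 5.79, 5.26 and 4.13 CPM with ADP-Hep. The groups treated with ADP-Hep lay above both PBS groups in each genotype, and the WT and KO libraries with ADP-Hep did not overlap. Tnfsf10 rose by 3.03 ± 0.16 in WT cells, 8.16-fold (edgeR adjusted p = 1.5e-14). In KO cells it rose by 1.75 ± 0.20, 3.36-fold (edgeR adjusted p = 3.4e-07), the largest increase of the 9 tested ligands in this genotype. The WT response was larger by 1.28 ± 0.30 (edgeR adjusted p = 0.00082).

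Tnfsf12 (ENSMUSG00000097328, chr11:69686250-69695849) and Tnfsf13 (ENSMUSG00000089669, chr11:69682846-69685784) lie 465 bases apart on the minus strand. Tnfsf12 encodes TWEAK, the ligand of Fn14 (Tnfrsf12a) in tissue repair, and Tnfsf13 encodes APRIL, a survival factor of plasma cells. Tnfsf12 was at 30.3, 35.3 and 27.6 CPM in WT cells with PBS and 15.7, 15.1 and 17.3 CPM with ADP-Hep. In KO cells it was at 28.6, 29.6 and 24.2 CPM with PBS and 18.8, 25.8 and 19.8 CPM with ADP-Hep. The WT ADP-Hep libraries were the lowest of all, while the KO groups overlapped in 1 library. Tnfsf12 fell by 0.96 ± 0.11 in WT cells, 1.94-fold (edgeR adjusted p = 8.6e-07), and by 0.39 ± 0.11 in KO cells (edgeR adjusted p = 0.0157). The KO call was lost when any 1 of KO PBS replicate 1 or 2, KO ADP-Hep replicate 1 or the unnumbered KO ADP-Hep library was left out (edgeR adjusted p = 0.0590, 0.0735, 0.0884 and 0.0688, within a range of 3.0e-05 to 1 over all settings). The WT and KO responses differed by -0.57 ± 0.16 (edgeR adjusted p = 0.0075).

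Tnfsf13 was at 2.73, 3.06 and 2.12 CPM in WT cells with PBS and 1.06, 1.34 and 1.21 CPM with ADP-Hep. KO cells held 3.13, 2.99 and 2.74 CPM with PBS and 1.80, 2.75 and 2.04 CPM with ADP-Hep. All WT ADP-Hep libraries were below the others. Tnfsf13 fell in WT cells by 1.10 ± 0.22, 2.15-fold (edgeR adjusted p = 0.00013). The KO estimate was -0.48 ± 0.21 (edgeR adjusted p = 0.086, and 0.036 without KO ADP-Hep replicate 3, where it was -0.63, within a range of 0.036 to 1 over all settings). The difference of responses, -0.63 ± 0.31, did not pass (edgeR adjusted p = 0.093, approximate 95% interval -1.23 to -0.028). It passed without WT PBS replicate 3 (-0.79, adjusted p = 0.041) and with library totals as the only scaling (-0.78, adjusted p = 0.034), within a range of 0.034 to 0.889 over all settings.

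The counts of both genes are uncertain, because other genes overlap them and no source used here states the strand setting of the counting. The read-through gene Tnfsfm13, on the same strand, covers all 9600 bases of Tnfsf12 and all 2939 of Tnfsf13 and had 22 to 80 reads per library. It fell by 0.89 ± 0.17 in WT cells (edgeR adjusted p = 7.0e-05), with a KO estimate of -0.30 ± 0.17 (edgeR adjusted p = 0.195). The antisense gene Tnfsf13os had 4 to 48 reads per library and fell by 1.85 ± 0.36 in WT cells (edgeR adjusted p = 9.2e-05), with a KO estimate of -0.32 ± 0.29 (edgeR adjusted p = 0.443).

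Tnfsf13b (ENSMUSG00000031497, chr8:10006467-10039072, plus strand) encodes BAFF, the survival factor of mature B cells. Its level was 8.52, 9.25 and 8.62 CPM in WT cells with PBS and 5.62, 5.48 and 5.69 CPM with ADP-Hep. KO cells held 6.71, 8.26 and 7.65 CPM with PBS and 8.90, 10.4 and 7.51 CPM with ADP-Hep. The lowest values were those of the WT ADP-Hep libraries, which lay close together, and the KO groups overlapped. Tnfsf13b fell in WT cells by 0.65 ± 0.12, 1.57-fold (edgeR adjusted p = 4.2e-05), a fall that did not pass a test against a 1.5-fold change (edgeR adjusted p = 0.494, the highest of all settings, whose lowest was 7.85e-07). In KO cells the estimate was 0.22 ± 0.12 (edgeR adjusted p = 0.188), and the responses differed by -0.87 ± 0.17 (edgeR adjusted p = 0.00014).

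**Figure D2:**
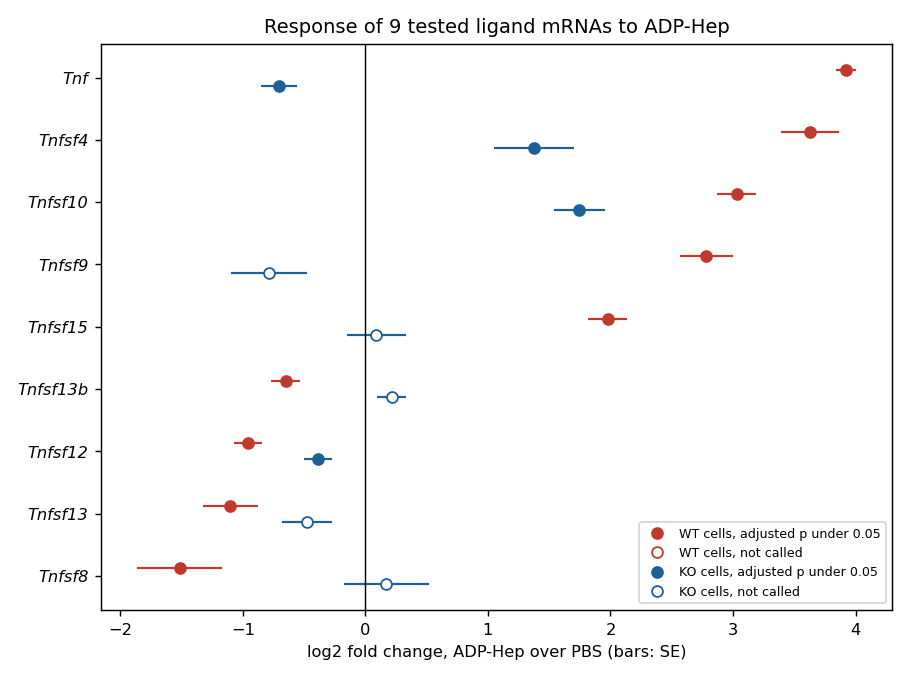
Log2 fold change of ADP-Hep over PBS (horizontal axis, bars are SE) for the 9 tested ligands in WT cells (red) and KO cells (blue); filled circles have an adjusted p under 0.05. All 9 WT points are filled, from 3.92 for Tnf to -1.51 for Tnfsf8, and 4 KO points are filled, with Tnf at -0.71.

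With PBS alone, Tnf was the only ligand called between the genotypes. It was lower in KO cells, by 0.49 ± 0.13 on the log2 scale (edgeR adjusted p = 0.0125). Thus 0 of the 9 tested ligands were called higher and 1 lower, against 5.57% and 5.82% of all tested genes, with a median of -0.16 beside 0.0013. The count higher was also 0 at an unadjusted edgeR p under 0.05 and with DESeq2 and limma-voom. The call was lost without WT PBS replicate 1 (-0.35, edgeR adjusted p = 0.0757), KO PBS replicate 1 (-0.48, 0.0568) or KO PBS replicate 2 (-0.44, 0.0632), within a range of 0.00026 to 1 over all settings. The Tnfsf15 libraries of the KO group were all below those of the WT group, with an estimate of -0.55 ± 0.23 that did not pass (edgeR adjusted p = 0.126). For Tnfsf4 the estimate was 0.0022 ± 0.39 (edgeR adjusted p = 0.998), and its approximate 95% interval ran from -0.76 to 0.76. The estimates of the other 6 tested ligands lay between -0.67 for Tnfsf8 and 0.39 for Tnfsf9, with edgeR adjusted p of 0.212 or more.

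With ADP-Hep, Tnf was 34.7-fold lower in KO than in WT cells, a log2 difference of -5.12 ± 0.09 (edgeR adjusted p = 2.1e-23). Tnfsf9 was 9.08-fold, Tnfsf15 5.42-fold, Tnfsf4 4.76-fold and Tnfsf10 2.66-fold lower. Tnfsf12, Tnfsf13, Tnfsf13b and Tnfsf8 were higher in KO cells, by 0.41 ± 0.12, 0.83 ± 0.23, 0.65 ± 0.12 and 1.02 ± 0.37 on the log2 scale. So 4 tested ligands were called higher and 5 lower, against 32.8% and 32% of all tested genes, with a median of -1.41 beside 0.014. The difference with the largest adjusted p, that of Tnfsf8 (edgeR adjusted p = 0.018), was lost without WT ADP-Hep replicate 2 (0.108), KO ADP-Hep replicate 1 (0.0790) or KO ADP-Hep replicate 3 (0.0687), within a range of 0.0065 to 0.202 over all settings. This comparison uses the same WT and KO libraries with ADP-Hep as the responses above and is not separate evidence of them.

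CPM values do not allow levels of different genes to be ordered, so RPKM was computed from the length of each gene's merged exons. The overlapping genes described above leave the counts of Tnfsf12 and Tnfsf13 uncertain, and so their RPKM, ranks and shares given here and below. In WT cells with PBS, Tnfsf12 led at 20.5 RPKM ± 2.58, ahead of Tnf at 5.91 ± 1.11. Tnfsf13 at 1.61 ± 0.291 and Tnfsf13b at 1.28 ± 0.0576 followed and overlapped between libraries. Tnfsf15 at 0.774 ± 0.159 and Tnfsf9 at 0.639 ± 0.105 also overlapped. Tnfsf8, Tnfsf10, Tnfsf4 and Tnfsf14 closed the order between 0.345 and 0.253 RPKM, each overlapping its neighbour.

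In WT cells with ADP-Hep the order was led by Tnf at 89.9 RPKM ± 6.54, followed by Tnfsf12 at 10.6 ± 0.725 and Tnfsf9 at 4.48 ± 0.526. Tnfsf4 at 3.36 ± 0.225, Tnfsf15 at 2.95 ± 0.460 and Tnfsf10 at 2.54 ± 0.362 overlapped from neighbour to neighbour. Tnfsf13b at 0.815 and Tnfsf13 at 0.734 overlapped, as did Tnfsf14 and Tnfsf8, both at 0.115. KO cells kept Tnfsf12 first and Tnf second under both treatments, at 18.1 ± 1.88 and 4.23 ± 0.304 RPKM with PBS and 14.2 ± 2.50 and 2.61 ± 0.242 RPKM with ADP-Hep. Tnfsf13 and Tnfsf13b came next in both KO groups, at 1.80 and 1.10 RPKM with PBS and 1.34 and 1.30 with ADP-Hep. Libraries of Tnfsf13b overlapped those of Tnfsf9, at 0.872 RPKM, in KO cells with PBS. In KO cells with ADP-Hep all neighbours from Tnfsf13 down to Tnfsf8, at 0.244 RPKM, overlapped. Tnfsf10 stood at 0.287 RPKM in KO cells with PBS and 0.961 with ADP-Hep.

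The summed RPKM of the 10 ligands was 31.9 ± 2.81 in WT cells with PBS and 116 ± 6.34 with ADP-Hep. It was 27.7 ± 1.66 and 22.8 ± 3.35 in the KO groups. Tnf made up 18.6% ± 3.68 of this sum in WT cells with PBS and 77.7% ± 1.40 with ADP-Hep, against 15.4% ± 2.07 and 11.5% ± 0.831 in KO cells. The share of Tnfsf12 went from 64.1% ± 3.66 to 9.16% ± 0.353 in WT cells and was 65.5% ± 3.01 and 62.1% ± 1.89 in KO cells. Shares of one sum are tied to each other, so the smaller share of Tnfsf12 includes the larger sum as well as its own fall.

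**Figure D3:**
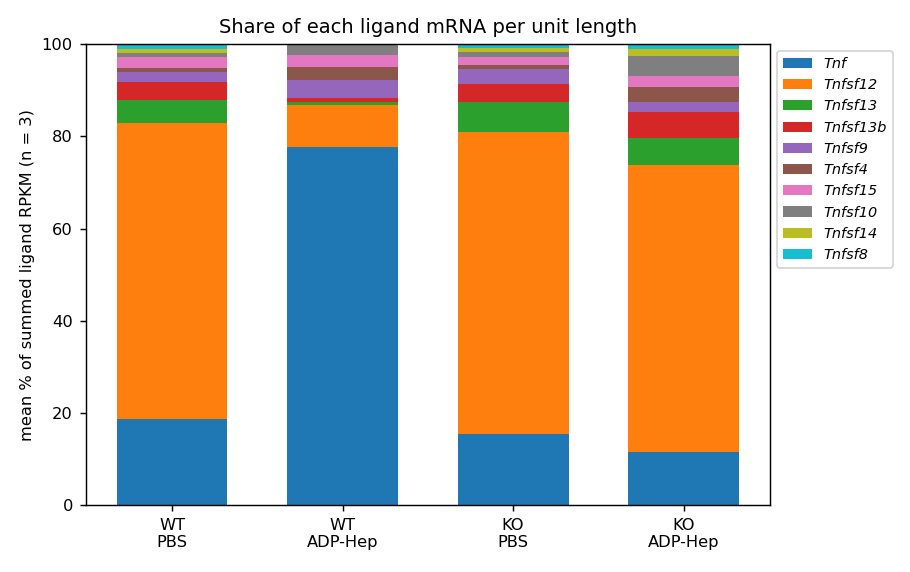
Mean share (vertical axis, %) of each ligand in the summed RPKM of the 10 ligands, n = 3 libraries per group; each color is a gene. Tnf takes 77.7% in WT cells with ADP-Hep and between 11.5% and 18.6% in the other 3 groups, where Tnfsf12 takes 62.1% to 65.5%.

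Across the 12 libraries, the log2(CPM + 0.5) profiles of the ligands that rose in WT cells ran together, and those of the ligands that fell ran against them. Pearson's r was 0.970 between Tnf and Tnfsf15 and 0.966 between Tnf and Tnfsf9. It was 0.750 between Tnf and Tnfsf10 and 0.946 between Tnfsf4 and Tnfsf10. Tnfsf12 and Tnfsf13 had r = 0.917, and Tnfsf4 and Tnfsf13 had r = -0.911. These values describe 12 points that fall into 4 groups of shared treatment and genotype. The rising and falling ligands were told apart by their WT response in these same libraries. The signs of r were thus largely set in advance and are no support. By the same measure over all tested genes, the 3 nearest to Tnf were Sdc4, Ralgapa2 and Cxcl16 (r = 0.998, 0.997 and 0.997), and the 3 nearest to Tnfsf15 were Ccl7, Slc30a6 and Ccl2 (0.993, 0.988 and 0.988). Those nearest to Tnfsf9 were Ik, Acsl4 and Slamf8 (0.992, 0.987 and 0.986), and those nearest to Tnfsf4 were Pum3, Pitpna and Lcp2 (0.994, 0.993 and 0.988). Tnfsf10 ran closest to Ifi206, Gm12250 and Ifit3 (0.994, 0.994 and 0.992). For the ligands that fell the nearest profiles were Bbs9, Hist1h3g and Cacna1d for Tnfsf8 (0.920, 0.918 and 0.899) and Galns, 2310022A10Rik and Tnni2 for Tnfsf12 (0.965, 0.964 and 0.962). They were Ergic3, Map1s and Vwf for Tnfsf13 (0.980, 0.975 and 0.973) and Pigq, 2610507B11Rik and Kif13a for Tnfsf13b (0.970, 0.956 and 0.950).

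Of 8 further ligands of the superfamily only Ltb, a subunit of the membrane lymphotoxin heterotrimer, was high enough to be tested. Ltb lies 3060 bases from Tnf, and its mean level was 0.973, 1.21, 0.930 and 0.618 CPM in WT cells with PBS, WT cells with ADP-Hep, KO cells with PBS and KO cells with ADP-Hep. Its WT response of 0.31 ± 0.30 was not called (edgeR adjusted p = 0.392), nor was its KO response of -0.50 ± 0.36 (edgeR adjusted p = 0.327). With ADP-Hep, Ltb was lower in KO than in WT cells, with a log2 difference of -0.89 ± 0.32 (edgeR adjusted p = 0.018). Lta, the lymphotoxin alpha gene 1157 bases on the other side of Tnf, had 1, 0 and 0 reads in WT cells with PBS and 4, 6 and 2 with ADP-Hep, and at most 1 in a KO library. Cd40lg had 0 counts in all libraries, and Fasl and Tnfsf11 had 1 count each.

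The receptors of the 10 ligands were present to very different extents. Tnfrsf1a, which encodes the death domain receptor TNFR1, was at 124 CPM ± 1.10 in WT cells with PBS and 175 ± 8.15 with ADP-Hep, and at 130 ± 0.524 and 143 ± 2.80 in KO cells. Tnfrsf1b, which encodes TNFR2, was at 890 ± 61.8 and 2629 ± 269 CPM in WT cells and at 933 ± 43.3 and 674 ± 49.7 CPM in KO cells. Tnfrsf1b rose in WT cells by 1.56 ± 0.07 (edgeR adjusted p = 7.8e-13) and fell in KO cells by 0.47 ± 0.07 (edgeR adjusted p = 5.5e-05). Both Tnf and this receptor therefore rose in WT cells and fell in KO cells. Tnfrsf1a rose by 0.50 ± 0.05 in WT cells and by 0.14 ± 0.05 in KO cells (edgeR adjusted p = 4.3e-10 and 0.021).

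Tnfrsf14, which encodes the LIGHT receptor HVEM, rose by 1.14 ± 0.07 in WT cells and 0.21 ± 0.07 in KO cells (edgeR adjusted p = 1.55e-13 and 0.028), with 37.7, 82.5, 38.1 and 44.5 CPM in the groups in the order above. Ltbr, the lymphotoxin beta receptor gene, rose by 0.22 ± 0.06 in WT cells (edgeR adjusted p = 0.0017). Tnfrsf8, which encodes CD30, rose from 3.64 CPM ± 0.493 to 8.99 ± 0.775 in WT cells, by 1.32 ± 0.13 (edgeR adjusted p = 3.8e-09), whereas its ligand gene Tnfsf8 fell there. Tnfrsf10b, which encodes the murine TRAIL receptor, rose by 0.63 ± 0.13 in WT cells (edgeR adjusted p = 0.00025). Tnfrsf13b, which encodes the BAFF and APRIL receptor TACI, was at 64.0 and 64.9 CPM in WT cells (0.03 ± 0.06, edgeR adjusted p = 0.703). In KO cells it rose from 59.0 to 93.9 CPM, by 0.67 ± 0.06 (edgeR adjusted p = 7.0e-09), and the responses differed by -0.64 ± 0.09 (edgeR adjusted p = 1.2e-06). Tnfrsf12a, which encodes the TWEAK receptor Fn14, was at 1.71 and 1.40 CPM in WT cells (edgeR adjusted p = 0.659) and at 3.15 ± 1.83 and 1.40 ± 0.396 CPM in KO cells, a fall of 1.14 ± 0.41 (edgeR adjusted p = 0.049).

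Receptors of the other ligands were near 0. Tnfrsf4, the OX40 gene, had group means of 0.235 to 0.370 CPM and Tnfrsf9, the CD137 gene, of 0.020 to 0.403 CPM. Tnfrsf13c and Tnfrsf25, the BAFF receptor and DR3 genes, had 0 reads with PBS in both genotypes and at most 0.042 CPM as a group mean. The ligand genes Tnfsf4, Tnfsf9 and Tnfsf15 thus rose in WT cells in which the messengers of their receptors were below the level of testing.

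**Figure D4:**
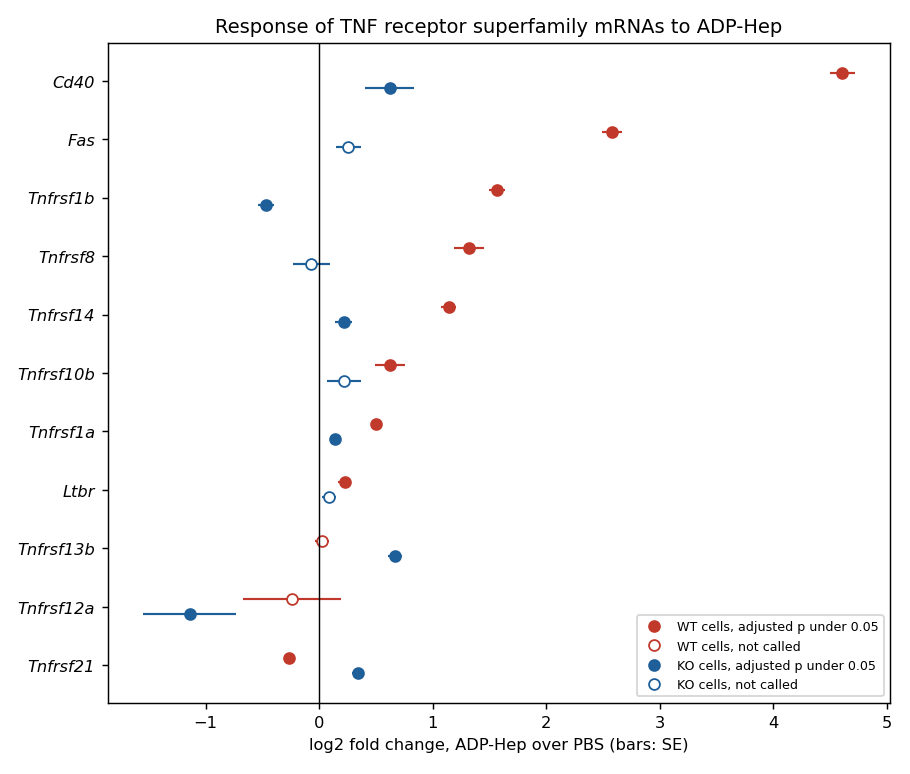
Log2 fold change of ADP-Hep over PBS (horizontal axis, bars are SE) for 11 tested receptor genes in WT cells (red) and KO cells (blue); filled circles have an adjusted p under 0.05. Of these genes Cd40 and Fas show the largest WT increases, 4.61 and 2.58. Tnfrsf13b and Tnfrsf12a are called only in KO cells, at 0.67 and -1.14. Tnfrsf1b and Tnfrsf21 are called in both genotypes, on opposite sides of 0.

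In all, 18 of 28 receptor genes were tested. In WT cells 9 were called higher and 4 lower, with a median of 0.13, and in KO cells 7 higher and 3 lower, with a median of 0.22. The interaction called 7 as more positive and 5 as more negative in WT cells. Over all tested genes these shares were 31.9% and 31.6% in WT cells, 13.7% and 15.3% in KO cells, and 24.6% and 24.9% for the interaction. The KO counts of receptor genes were 7 and 2 with DESeq2's size factors, 6 and 2 with limma-voom and 8 and 3 with library totals. Cd40, the co-stimulatory receptor of antigen-presenting cells, went from 2.56 to 60.9 CPM in WT cells and from 1.53 to 2.46 CPM in KO cells. It rose by 4.61 ± 0.11 and 0.62 ± 0.22 (edgeR adjusted p = 9.0e-22 and 0.032), and the responses differed by 3.99 ± 0.29 (edgeR adjusted p = 1.7e-11). Fas, the death receptor gene, rose by 2.58 ± 0.09 in WT cells, from 8.36 to 50.3 CPM (edgeR adjusted p = 1.4e-18), with a KO estimate of 0.26 ± 0.11 (edgeR adjusted p = 0.090). Tnfrsf21, the DR6 gene, fell by 0.26 ± 0.05 in WT cells and rose by 0.34 ± 0.05 in KO cells (edgeR adjusted p = 4.8e-05 and 8.0e-06).

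Of 11 genes for the processing and shedding of ligands 9 were tested. In WT cells 5 were called higher and 3 lower (median 0.12), and in KO cells 1 higher and 4 lower (median -0.14). All tested genes were called at 31.9% and 31.6% in WT cells and at 13.7% and 15.3% in KO cells. With library totals as the only scaling these counts were 3 and 3, and 2 and 3. The interaction called 4 as more positive and 2 as more negative in WT cells, against 24.6% and 24.9% of all tested genes. Adam17, the protease that releases TNF from the membrane, rose from 490 CPM ± 20.6 to 791 ± 16.4 in WT cells, by 0.69 ± 0.04 (edgeR adjusted p = 2.8e-13). In KO cells it fell by 0.14 ± 0.04 (edgeR adjusted p = 0.013). Rhbdf2, the iRhom that carries ADAM17 to the cell surface, rose by 0.94 ± 0.05 in WT cells and fell by 0.46 ± 0.06 in KO cells (edgeR adjusted p = 5.0e-14 and 1.1e-06). Sppl2a, an intramembrane protease, rose by 0.63 ± 0.05 and 0.17 ± 0.05 (edgeR adjusted p = 4.1e-11 and 0.011). Adam10, a related sheddase, fell by 0.19 ± 0.04 in WT cells (edgeR adjusted p = 0.00058), with a KO estimate of 0.10 ± 0.04 (edgeR adjusted p = 0.099). Frmd8, which stabilizes the iRhom and ADAM17 complex, had responses of 0.12 ± 0.05 and -0.26 ± 0.05 (edgeR adjusted p = 0.048 and 0.00044).

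All 12 genes listed for the decay and translation of Tnf mRNA were tested. In WT cells 7 were called higher and 4 lower (median 0.28), and in KO cells 0 higher and 4 lower (median -0.083), against 31.9% and 31.6%, and 13.7% and 15.3%, of all tested genes. DESeq2 and limma-voom also called 0 higher there, and 1 was higher at an unadjusted edgeR p under 0.05. The interaction called 6 as more positive and 1 as more negative in WT cells, against 24.6% and 24.9% of all tested genes. With library totals as the only scaling, the KO counts were 1 and 4 and those of the interaction 5 and 2. Zfp36, whose product binds the element printed above, rose from 77.6 to 171 CPM in WT cells, by 1.14 ± 0.06 (edgeR adjusted p = 2.75e-14), with a KO estimate of 0.06 ± 0.06 (edgeR adjusted p = 0.532). Mapkapk2, the kinase that inhibits tristetraprolin, rose by 1.55 ± 0.04 in WT cells (edgeR adjusted p = 2.9e-20), from 228 to 669 CPM. Elavl1, a stabilizer of AU-rich messengers, rose by 0.46 ± 0.05 and Zc3h12a, the endonuclease Regnase, by 0.37 ± 0.05 in WT cells (edgeR adjusted p = 2.9e-09 and 1.0e-06). Zfp36l2, a relative of Zfp36, fell from 270 to 111 CPM in WT cells, by 1.28 ± 0.04, and by 0.15 ± 0.04 in KO cells (edgeR adjusted p = 1.3e-18 and 0.0087). Tnf thus rose in WT cells together with messengers of factors that shorten and factors that prolong the life of AU-rich mRNA.

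Of the 25 genes of proximal TNF receptor signalling, all tested, 15 were called higher and 5 lower in WT cells (median 0.23) and 6 higher and 5 lower in KO cells (median -0.0075). The shares of all tested genes were 31.9% and 31.6% in WT cells and 13.7% and 15.3% in KO cells. Library totals as the only scaling gave 8 and 2 in KO cells. The interaction called 14 as more positive and 6 as more negative in WT cells, against 24.6% and 24.9% of all tested genes. Traf1, an adaptor of TNFR2 and CD40 signalling, rose from 2.34 to 102 CPM in WT cells, by 5.45 ± 0.10 (edgeR adjusted p = 4.05e-24), with a KO estimate of -0.35 ± 0.20 (edgeR adjusted p = 0.206). Birc3, the ubiquitin ligase cIAP2, rose by 2.30 ± 0.05 and Tnfaip3, the deubiquitinating enzyme A20, by 2.31 ± 0.06 in WT cells (edgeR adjusted p = 2.4e-22 and 1.1e-21). Cflar, the caspase 8 inhibitor cFLIP, rose by 1.64 ± 0.05 and Traf3 by 1.04 ± 0.05 (edgeR adjusted p = 1.7e-20 and 1.5e-15). Of these 5 genes, Birc3 and Traf3 fell in KO cells, by 0.17 ± 0.06 in each (edgeR adjusted p = 0.031 and 0.036). Cflar and Tnfaip3 had KO estimates of -0.12 ± 0.05 and -0.16 ± 0.06 (edgeR adjusted p = 0.059 and 0.067).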

How the data were processed

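The authors deposited 1 table of read counts per gene for 12 BMDM libraries, not normalized. The submitters' processing notes name the builds mm10 and hg38 and, as tools, STAR, featureCounts, RSEM, DESeq2, Trim Galore and FastQC. Which of them made the counts, with which version, annotation and strand setting, is not given in the sources used here. Per the labels' protocols, a stranded mRNA kit was used. Columns were matched by name; 1 KO ADP-Hep column matched no replicate number and was kept in its group.

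A slip of the KO columns was placed at row 37642, from which they sat 1 row below the identifiers. This break gave the smallest summed squared difference between mean log2 WT and KO counts, with KO moved up 1 row below it. WT and KO counts correlated at r = 0.996 in the rows used. Below the slip, r was 0.042 as deposited and 0.979 with KO moved up 1 row. Rows above the slip, less a margin of 100, were used (37542 rows, with 19206 left out), holding 71.3 to 85.2% of each library's counts. Of the identifiers used, 37490 were in GENCODE M21 (mm10), the source of coordinates and lengths.

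Counts were scaled by TMM, kept by filterByExpr (about 0.632 CPM in 3 libraries) and fitted with edgeR 4.0.16 (R 4.3.3, limma 3.58.1, DESeq2 1.42.0 as an alternative) as 1 quasi-likelihood model of 4 group means. SEs were derived from the F statistics, and 95% intervals from them by a normal approximation, which makes the intervals somewhat too narrow. Replicates differed beyond sampling noise (chi-square per degree of freedom 2.00 to 10.9). The test was checked on simulated data. Of groups sharing 3 replicate numbers, only WT and KO cells with PBS had every same-numbered pair of libraries deviate together at r over 0.1 (0.10 to 0.17). This comes from the data and not the labels, and no call there changed with the replicate block. Between WT cells with ADP-Hep and KO cells with PBS, same-numbered pairs had r = 0.0092 to 0.18 and other pairs -0.16 to 0.080. Named genes are Alpk1, the 10 ligands, their receptors, up to 5 called genes per list with the smallest interaction p, and the 3 nearest profiles of each tested ligand; the remainder are neighbours or overlapping genes. Members and lists were chosen with earlier results of these data known.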

Additional observations from a re-analysis of the deposited data

Results flagged for a closer look

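For 8 ligands the response to ADP-Hep differed between WT and KO cells by the interaction test of edgeR. The log2 response in WT minus that in KO cells was 4.63 for Tnf, 3.57 for Tnfsf9, 2.25 for Tnfsf4, 1.89 for Tnfsf15 and 1.28 for Tnfsf10. It was -0.57 for Tnfsf12, -0.87 for Tnfsf13b and -1.69 for Tnfsf8. Tnf also changed in KO cells, and Tnfsf4 and Tnfsf10 rose in both genotypes. Tnfsf12 was called lower in KO cells, a call that was lost in 6 of 23 other settings. Tnfsf4 passed the filter on low counts only through the ADP-Hep groups, so its tests are no support.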

How the results depend on the processing

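The 45 ligand results were recomputed under 24 other settings, and 994 of 1033 values kept their direction and their side of the threshold; 22 lost a call, 5 gained one and 12 changed sign. Against a 1.5-fold change (glmTreat) 3 ligands were called lower in WT cells, without Tnfsf13b, 1 ligand was called higher and 0 lower in the KO response, 1 was more negative in the interaction, and 0 remained of the ligands lower in KO cells with PBS and higher in KO cells with ADP-Hep; this threshold asks for more than a difference from 0. Leaving out each library in turn gave 1 to 4 ligands lower in the KO response, 3 to 5 more negative in the interaction and 0 to 1 lower in KO cells with PBS. Sign changes concerned values near 0. For Tnfsf4 between genotypes with PBS (0.0022) the value was -0.0068 with DESeq2, -0.068 with limma-voom, -0.010 without the filter, -0.012 with the replicate block, -0.0051 with the lower rows moved by 1 (chosen after seeing the data) and -0.49 to 0.19 with a library left out. The like range was -0.31 to 0.011 for Tnfsf10 with PBS and -0.078 to 0.29 for the KO response of Tnfsf15. The cause was not tested.

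With library totals as the only scaling, the median of all tested genes shifted to -0.116 in WT cells, and 2990 genes were called higher and 4928 lower there against 3914 and 3871. The splits were 2364 and 1483 against 1679 and 1870 in KO cells, 2020 and 4512 against 3017 and 3053 for the interaction, and 5607 and 2723 against 4017 and 3928 between genotypes with ADP-Hep (median 0.168). No ligand changed direction under this scaling or with DESeq2's size factors. With the replicate number as a block, which drops the unnumbered library, 1 ligand was lower in the KO response: Tnfsf12 was lost (-0.29, adjusted p = 0.140), and Tnfsf13b passed as higher (0.37, adjusted p = 0.045). Deviations of same-numbered libraries correlated at -0.43 to 0.20 (15 pairs) and those of differently numbered ones at -0.24 to 0.29 (30 pairs). Of the groups that share 3 numbers, only WT and KO cells with PBS had every same-numbered pair over 0.1 (0.10 to 0.17, against -0.13 to 0.025 for other pairs); the ADP-Hep groups share 2 numbers (0.15 and 0.20). With the block in a fit of the PBS groups alone, chosen after seeing the data, 0 ligands were higher and 1 lower, Tnf (-0.47, adjusted p = 0.0031). A fit of only the groups compared does not exist for the interaction, which uses all 4. Depth limits Tnfsf8, Tnfsf14, Tnfsf4 with PBS, Tnfsf9 outside WT cells with ADP-Hep and Tnfsf10 in KO cells with PBS, which rest on 67 reads or fewer per group. Little more stood behind Tnfsf13 in WT cells with ADP-Hep (70 reads). The same holds for Tnfsf4 in KO cells with ADP-Hep (73) and Tnfsf15 in KO cells with PBS (74).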
